A study of Mus musculus with 5 samples.

Results

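The respiratory chain of mouse lung natural helper cells was described here through 81 of the 19938 genes measured, namely the nuclear-coded subunits of complexes I to V. Members were chosen by gene symbol, as the Nduf subunit families a, b, c, s and v, the 4 Sdh genes, the Uqcr genes, Cox4 to Cox8 and the Atp5 genes, with 1 probe set per gene, that with the highest mean over all 5 arrays. This gave 35 genes of complex I, 4 of complex II, 8 of complex III, 17 of complex IV and 17 of complex V. Natural helper cells are innate lymphocytes without antigen receptors, now counted among group 2 innate lymphoid cells. The donors were naive C57Bl/6 mice, 6 to 8 weeks old, and the sort took lung cells negative for lineage markers, positive for Sca-1, CD127 and CD25, and low or negative for c-Kit. For 2 arrays the sorted cells spent 3 days in culture (200 microlitres) with PMA at 60 ng/ml, which acts on protein kinase C, and ionomycin at 500 ng/ml, which lets calcium into cells. For the 3 unstimulated arrays RNA was taken straight after sorting, so the effects of culture and of the stimulus cannot be told apart. The labels name neither the mice nor the cultures behind each array, so p-values measure the spread between these arrays, which may be technical.

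Complex I takes electrons from NADH and complex II takes them from succinate, and both pass them to coenzyme Q. Complex III passes them on to cytochrome c and complex IV to oxygen, while complexes I, III and IV pump protons out of the matrix, and complex V, ATP synthase, uses their return to make ATP. Lymphocytes that are activated and begin to divide are known to raise both glycolysis and mitochondrial respiration. Several subunits of complex IV exist as a widely expressed form and as forms known from heart and skeletal muscle, testis or lung.

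The identity of the samples was checked first on marker genes. Of the 12 listed natural helper cell markers 10 were measured, and their summed linear level was 10327 and 10633 on the PMA and ionomycin arrays, against 14125 to 15176 on the unstimulated arrays. Of the 10, 4 were called lower after PMA and ionomycin and none higher: the interleukin-25 receptor gene Il17rb fell by 3.23 on the log2 scale used for all levels below (limma adjusted p = 0.0492), and Rora, Id2 and Il7r fell by 0.81, 0.78 and 0.77. Uncalled differences were -1.34 for Thy1, -1.27 for Klrg1, -0.51 for the transcription factor Gata3, 0.03 for Ptprc, 0.19 for Il2ra and 0.71 for the cytokine Il5. Gata3 was at 10.18 and 10.22 after PMA and ionomycin, against 10.55 to 10.82 in unstimulated cells. The summed level of 7 lung epithelium markers was 459 and 574 on the PMA and ionomycin arrays, against 3004, 1913 and 777 on unstimulated arrays 1, 2 and 3. That of 6 endothelium and stroma markers was 408 and 459 after PMA and ionomycin, against 1617, 1131 and 508 in the same order. The summed markers of lung tissue were thus highest on unstimulated array 1, and their part in the results was not tested. Single markers differed: on unstimulated arrays 1, 2 and 3 Scgb1a1 was at 11.17, 10.58 and 8.67, but Epcam at 5.61, 5.61 and 5.99. Sftpb was at 5.75 on all 3. On unstimulated array 1, 63 of the 81 members had their lowest value. So had 4209 of all 19938 genes, and 3304 of the 10356 genes brighter than the middle of all probe sets. The values with array 3 as the only unstimulated array are given beside the medians, a choice made after the data were seen. The summed levels of the other lists were 1077 to 1396 against 1604 to 2640 for 6 T cell markers, 171 to 174 against 152 to 227 for 5 B cell markers, 314 to 344 against 409 to 664 for 8 myeloid markers and 448 to 460 against 446 to 530 for 10 heart and skeletal muscle markers. The 1 red cell marker measured, Alas2, was at 5.66 and 5.84 after PMA and ionomycin and at 5.59 to 5.66 in unstimulated cells. In bulk samples such as these, fewer cells of a type and less RNA per cell cannot be told apart.

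Most respiratory chain genes had higher values after PMA and ionomycin, by a modest amount. The difference was above 0 for 73 of the 81 genes and below 0 for 8, with a median of 0.42 on the log2 scale (1.34-fold) and quartiles of 0.15 and 0.74, whereas the median over all genes measured was 0.00, with quartiles of -0.08 and 0.13. With arrays centred on 5 reference genes, a scaling described below, the difference was above 0 for 51 of the 81. A single member, Ndufa11 of complex I, rose at an adjusted p under 0.05 in limma, and no member fell. Over all genes, 0.737% were called higher and 0.963% lower, and among genes brighter than the middle of all probe sets 1.27% and 1.8%, so that 1 of 81 members is near the background. Both PMA and ionomycin values lay above all 3 unstimulated values in 58 members (71.6%), and below them in Cox7a2l and Atp5md. Such separation was found upwards in 18.6% of all genes and downwards in 14% of them. Most members are bright, 76 of 81 having a mean above the middle value of all probe sets, and among such bright genes 29.9% were separated upwards and 21.3% downwards. At an unadjusted p under 0.05 in limma, 41 members were higher and 1 was lower, against 11.3% and 8.58% of all genes and 19.3% and 14.4% of those brighter genes. These member counts differed between the fits that dropped 1 unstimulated array. Dropping array 1, highest in the summed lung tissue markers, gave 42 members higher and 0 lower. Dropping array 2 gave 27 and 1, and dropping array 3 gave 37 and 2. Each of these fits also has fewer arrays from which to estimate the spread. Where 1 array was left in a group, this paragraph gives only the member median. How the counts depend on the 2 PMA and ionomycin arrays is therefore not shown here. The member median was 0.37 when PMA and ionomycin array 1 was dropped and 0.49 when array 2 of that group was. With array 3 as the only unstimulated array it was 0.37. The member counts were 18 and 1 with the replicate number as a block, and 28 and 6 with the reference genes as the scale. Of the 81 members 6 were at least 2-fold higher and 12 lay within 0.1 of 0.

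The complexes did not have the same median difference. It was 0.59 in complex I, 0.37 in complex II, 0.72 in complex III, 0.11 in complex IV and 0.31 in complex V. The complex IV median fell on Cox7b2, at 2.90 to 3.06 on the 5 arrays, 1 of 7 forms known from other tissues. Without these 7 the median of complex IV was 0.29. With array 3 as the only unstimulated array the medians were 0.37, 0.19, 0.64, 0.10 and 0.37 in that order, and that of all members was 0.37. When each array was centred on 5 reference genes (Tbp, Hprt, Gusb, Ywhaz and Polr2a), the median of complex IV became -0.17 and the others 0.31 for complex I, 0.09 for complex II, 0.44 for complex III and 0.03 for complex V. That scaling moved the median of all genes by -0.28, and the complex IV median was again the value of Cox7b2. The reference genes themselves differed by a median of 0.23 after PMA and ionomycin, and none of the 5 was called. All 5 differences were above 0, from 0.05 for Ywhaz to 0.71 for Gusb. Differences between complexes were not tested.

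**Figure D1:**
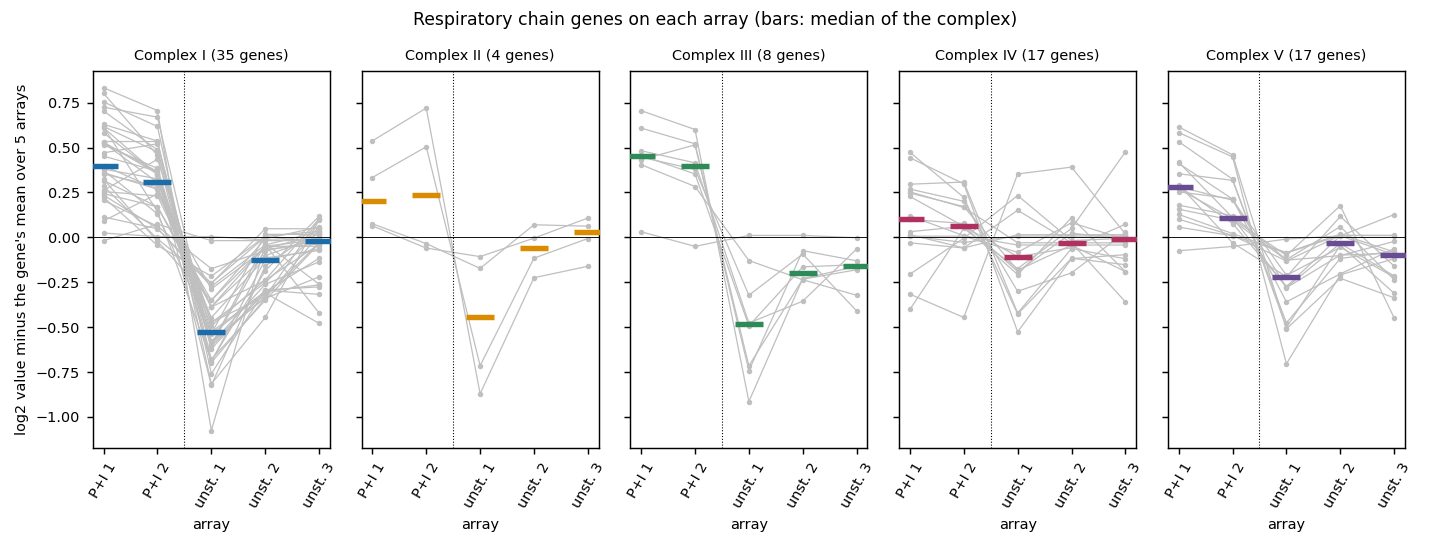
Each line is 1 gene, plotted as its log2 value minus its own mean over the 5 arrays, with the PMA and ionomycin arrays left of the unstimulated arrays and a panel for each complex, and bars give the median of the complex. In complex III the medians were 0.45 and 0.40 after PMA and ionomycin and -0.48, -0.20 and -0.16 in unstimulated cells, while in complex IV they stayed between -0.11 and 0.10.

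**Figure D2:**
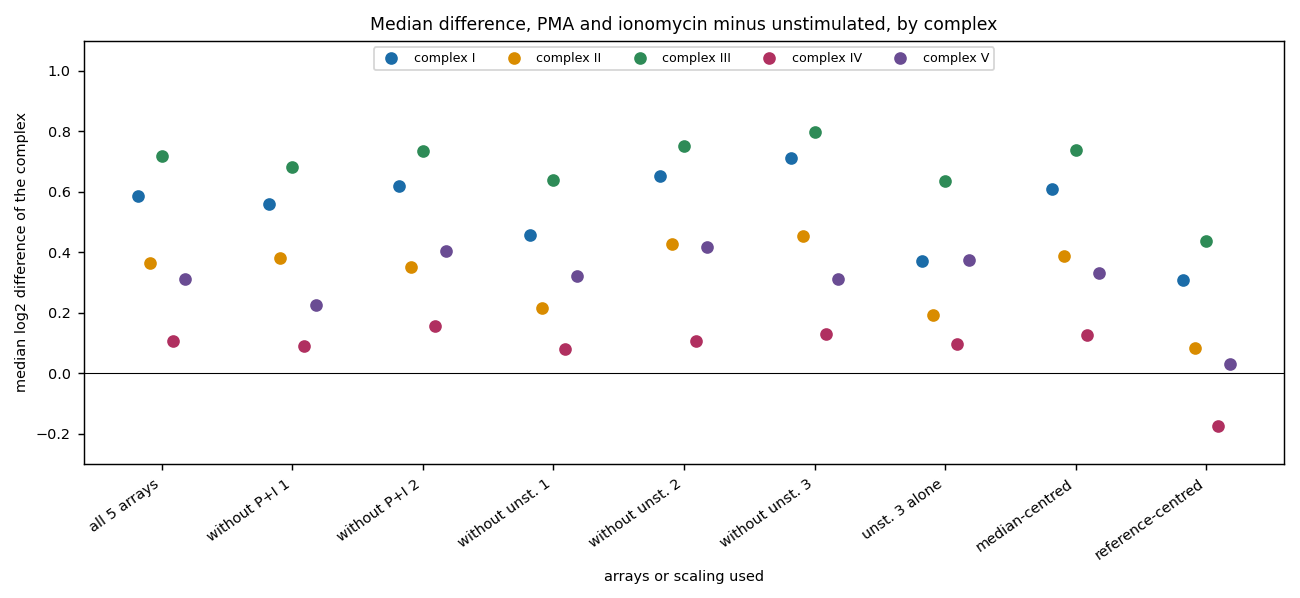
The median log2 difference of each complex, PMA and ionomycin minus unstimulated, is plotted for all arrays and for other choices of arrays and scaling. Complex III and complex I lay highest with all arrays, at 0.72 and 0.59, and complex IV lay lowest, at 0.11, with a value below 0 where the reference genes set the scale. Without 7 forms known from other tissues the complex IV median was 0.29 with all arrays.

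Promoters were searched because most members differed in 1 direction. RefSeq promoters (build GRCm38.p6, 250 bases before and 50 after the start) were found for 66 of the 81 members. The letters GCGCA and GCGC with 1 base of any kind between them, the core of the site of the transcription factor NRF1, a known activator of respiratory genes, were found on either strand in 16 of 66 members (24.2%), against 5.19% of the 27025 genes with a promoter. The letters CCGGAAG, the core site of ETS factors such as GABP, were found in 17 of 66 (25.8%), against 9.93% of all genes, and 4 members held both. Matches of the 2 motifs share no letters in the stretches shown, and a match describes the letters of this window and no more. Members with the NRF1 letters had a median difference of 0.51 and those without 0.46, and the medians with and without the ETS letters were 0.34 and 0.52. The 150 bases before the start are given for 4 members with an NRF1 match, chosen after their values were seen to set 3 genes with wide differences beside Sdhd, whose difference was 0.00. Ndufa11 lies at chr17:56717612-56717761 on the plus strand, Ndufs5 at chr4:123718187-123718336, Sdhd at chr9:50603850-50603999 and Atp5k at chr5:108434400-108434549, all 3 on the minus strand. Capitals mark the NRF1 match, whose first base lies 60, 98, 79 and 50 bases before the start, and in Sdhd also an ETS match on the other strand, 46 bases before it. The window of Atp5k also holds ETS letters, which do not lie wholly within the stretch shown. Sequences run 5′ to 3′.
Ndufa11: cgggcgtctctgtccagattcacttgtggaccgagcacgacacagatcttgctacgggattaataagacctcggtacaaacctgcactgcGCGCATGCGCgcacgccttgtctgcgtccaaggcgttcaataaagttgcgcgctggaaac
Ndufs5: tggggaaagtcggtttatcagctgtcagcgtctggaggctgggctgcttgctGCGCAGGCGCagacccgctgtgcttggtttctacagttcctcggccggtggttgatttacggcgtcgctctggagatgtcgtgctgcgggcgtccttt
Sdhd: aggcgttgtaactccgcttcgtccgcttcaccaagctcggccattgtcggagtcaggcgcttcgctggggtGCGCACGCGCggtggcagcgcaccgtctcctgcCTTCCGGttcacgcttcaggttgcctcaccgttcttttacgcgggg
Atp5k: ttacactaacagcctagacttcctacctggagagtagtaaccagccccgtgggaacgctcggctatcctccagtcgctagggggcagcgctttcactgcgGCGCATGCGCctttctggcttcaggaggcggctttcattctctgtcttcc
The 4 matches share the NRF1 pattern and differ at its free base, which is the same in Ndufa11 and Atp5k and another in each of Ndufs5 and Sdhd.

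All 35 complex I genes had a positive difference, and in 29 (82.9%) the 2 groups did not overlap. Ndufa11, an accessory subunit of the membrane arm, was at 9.32 and 9.26 after PMA and ionomycin, against 7.98, 8.28 and 8.11 in unstimulated cells. It rose by 1.16 ± 0.10 on the log2 scale (SE, n = 2 and 3; 2.24-fold; limma adjusted p = 0.0443), and its other probe set differed by 1.18. The call was lost without any 1 of the 5 arrays, at limma adjusted p = 0.0939 to 0.127, and with array 3 as the only unstimulated array, at 0.126, while the difference stayed at 1.09 or more. With the mean of its 2 probe sets the adjusted p of Ndufa11 was 0.0551, with a robust prior 0.0613 and with the replicate number as a block 0.219.

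The widest difference in complex I belonged to Ndufs5, an accessory subunit on the intermembrane side, which was at 8.69 and 8.57 after PMA and ionomycin and at 6.78, 7.82 and 7.44 in unstimulated cells. Its difference was 1.28 ± 0.36 (limma adjusted p = 0.18), and the low value of unstimulated array 1 set much of the spread. Ndufc2, an accessory subunit of the membrane arm, was at 11.06 and 10.93 after PMA and ionomycin and at 9.55, 10.02 and 9.99 in unstimulated cells, a difference of 1.14 ± 0.18 (limma adjusted p = 0.0847). Ndufb7, an accessory subunit of the same arm, was at 10.24 and 9.90 after PMA and ionomycin and at 8.75, 9.10 and 9.22 in unstimulated cells, a difference of 1.05 ± 0.20 (limma adjusted p = 0.107). In all 3 genes the lower PMA and ionomycin value lay above the highest unstimulated value, and none passed the threshold.

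The flavin and iron-sulfur core, which carries electrons from NADH to coenzyme Q, had a median difference of 0.51 over 6 genes, 4 of which did not overlap. Ndufs8, which binds a pair of iron-sulfur clusters, was at 8.09 and 7.87 after PMA and ionomycin and at 6.76, 7.09 and 7.11 in unstimulated cells (0.99 ± 0.15; limma adjusted p = 0.0789). Ndufv2, which holds an iron-sulfur cluster beside the flavin, was at 9.10 and 9.10 after PMA and ionomycin and at 7.89, 8.22 and 8.53 in unstimulated cells (0.89 ± 0.22; limma adjusted p = 0.15). Ndufs7, whose cluster hands electrons to coenzyme Q, was at 7.46 and 7.37 after PMA and ionomycin and at 6.42, 6.67 and 7.11 in unstimulated cells (0.68 ± 0.24; limma adjusted p = 0.253). These 3 and Ndufs3, at 9.19 and 9.11 after PMA and ionomycin against 8.59 to 8.93 in unstimulated cells, did not overlap. Ndufv1, which binds the flavin and NADH, was at 7.87 and 7.53 after PMA and ionomycin and at 7.20, 7.54 and 7.61 in unstimulated cells. Ndufs1, the largest core subunit, was at 8.54 and 8.27 after PMA and ionomycin and at 8.10, 8.32 and 8.35 in unstimulated cells. The groups of Ndufv1 and Ndufs1 overlapped, with differences of 0.25 ± 0.19 and 0.15 ± 0.13.

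The accessory subunits of complex I are not needed for electron transfer itself but for assembly and stability. All 12 genes of the a family, counted without Ndufa4 and Ndufa4l2, and all 4 of the s and v families outside the core had groups that did not overlap, with medians of 0.57 and 0.83 and ranges of 0.22 to 1.16 and 0.28 to 1.28. The 11 genes of the b and c families had a median of 0.74 and a range of 0.02 to 1.14, and 8 did not overlap. Ndufb11, a membrane arm subunit, lay at the low end, at 10.27 and 10.25 after PMA and ionomycin and at 10.25, 10.24 and 10.23 in unstimulated cells, nearly the same on every array. Ndufa4, first assigned to complex I and since placed with complex IV, was at 11.30 and 11.23 after PMA and ionomycin and at 10.50, 10.84 and 10.88 in unstimulated cells (0.53 ± 0.14; limma adjusted p = 0.169). Its relative Ndufa4l2, known as a gene induced by low oxygen, was at 5.04 and 5.13 after PMA and ionomycin and at 5.04 on all 3 unstimulated arrays.

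Complex II, also an enzyme of the citric acid cycle, had 4 genes in an even split. Sdhb, the iron-sulfur subunit, was at 9.28 and 9.46 after PMA and ionomycin and at 7.87, 8.51 and 8.58 in unstimulated cells, a difference of 1.05 ± 0.27 (2.07-fold; limma adjusted p = 0.162). Sdhc, a membrane anchor, was at 9.34 and 9.51 after PMA and ionomycin and at 8.29, 8.89 and 9.00 in unstimulated cells, a difference of 0.70 ± 0.26 (limma adjusted p = 0.288). Both were lowest on unstimulated array 1, and in both the groups did not overlap. Sdha, the flavin subunit that oxidises succinate, was at 9.02 and 8.91 after PMA and ionomycin and at 8.77, 9.01 and 9.00 in unstimulated cells (0.03 ± 0.10). Sdhd, the other anchor, was at 6.75 and 6.63 after PMA and ionomycin and at 6.58, 6.68 and 6.79 in unstimulated cells (0.00 ± 0.08). The groups of Sdha and Sdhd overlapped, and without unstimulated array 1 their differences were -0.05 and -0.05.

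Of the 8 complex III genes 7 (87.5%) had groups that did not overlap, and none was called, with 7 at an unadjusted p under 0.05. Uqcr11, a small subunit, was at 8.18 and 8.07 after PMA and ionomycin and at 6.56, 7.24 and 7.31 in unstimulated cells, a difference of 1.09 ± 0.28 (2.13-fold; limma adjusted p = 0.163), but its other probe set differed by 0.56. Uqcr10, a small subunit next to cytochrome c1, was at 9.19 and 9.10 after PMA and ionomycin and at 7.87, 8.35 and 8.40 in unstimulated cells (0.94 ± 0.20; limma adjusted p = 0.122). Uqcrb, which lines the quinone pocket, was at 9.99 and 9.92 after PMA and ionomycin and at 9.03, 9.15 and 9.44 in unstimulated cells (0.75 ± 0.15; limma adjusted p = 0.107). The small subunits had a median of 0.75, and the core proteins and the Rieske protein had one of 0.67. Uqcrc1, a core protein, was at 7.63 and 7.71 after PMA and ionomycin and at 6.46, 7.12 and 7.07 in unstimulated cells (0.79 ± 0.25; limma adjusted p = 0.222). Uqcrc2, the other core protein, was at 9.62 and 9.52 after PMA and ionomycin and at 8.67, 9.00 and 9.01 in unstimulated cells (0.67 ± 0.14; limma adjusted p = 0.112). The electron-carrying subunit among them is Uqcrfs1, the Rieske iron-sulfur protein, at 9.44 and 9.32 after PMA and ionomycin and at 8.90, 8.80 and 8.71 in unstimulated cells (0.57 ± 0.08; limma adjusted p = 0.0688), and unlike most members it was not lowest on unstimulated array 1. The exception was Uqcrh, the hinge protein that binds cytochrome c1, at 11.18 and 11.10 after PMA and ionomycin and at 11.16, 11.16 and 11.15 in unstimulated cells.

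**Figure D3:**
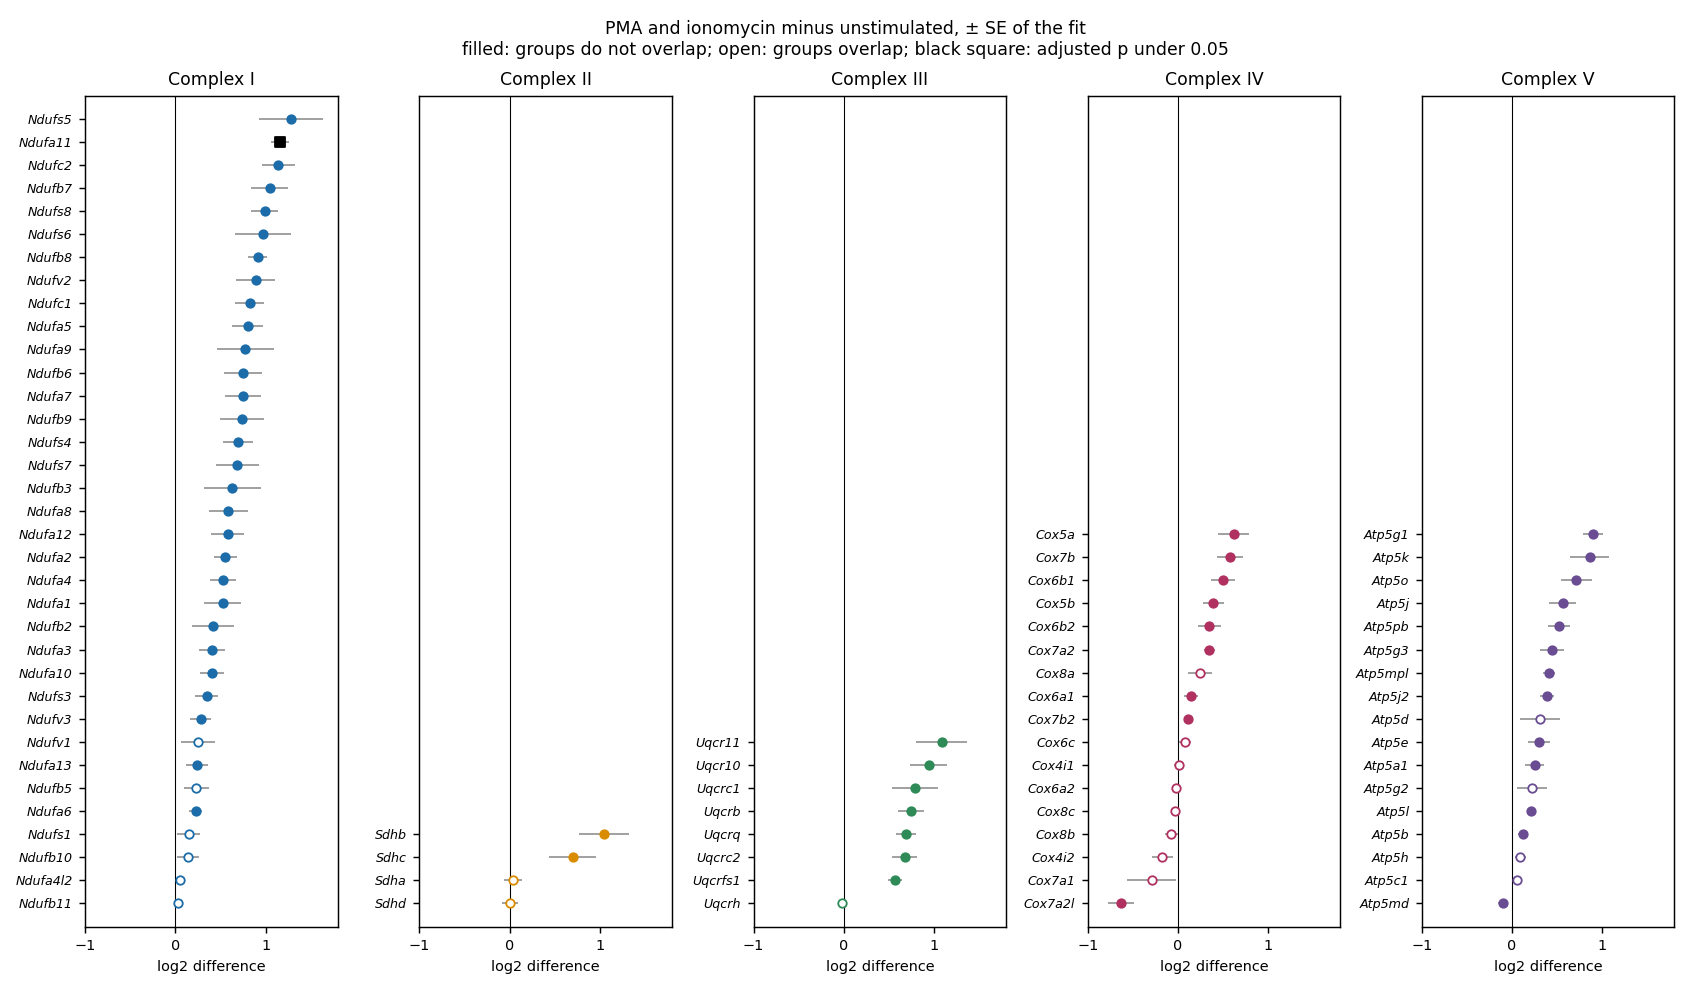
The log2 difference of each of the 81 genes, PMA and ionomycin minus unstimulated, is plotted with the SE of the fit, with a panel for each complex, filled points where the groups did not overlap and a black square where the limma adjusted p was under 0.05. Differences run from -0.64 for Cox7a2l to 1.28 for Ndufs5, and the called gene is Ndufa11.

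Complex IV had the lowest median, and its subunits fell into 2 kinds. All 9 widely expressed subunits had positive differences, with a median of 0.35, and 6 of them did not overlap. Cox5a, a subunit on the matrix side, was at 10.26 and 10.11 after PMA and ionomycin and at 9.29, 9.69 and 9.72 in unstimulated cells (0.62 ± 0.17; limma adjusted p = 0.179). Cox7b, a single-span membrane subunit, was at 10.99 and 10.74 after PMA and ionomycin and at 10.09, 10.40 and 10.37 in unstimulated cells (0.58 ± 0.14; limma adjusted p = 0.151). Cox6b1, on the intermembrane side, was at 11.97 and 11.98 after PMA and ionomycin and at 11.26, 11.61 and 11.56 in unstimulated cells (0.50 ± 0.13; limma adjusted p = 0.162). These 3 were lowest on unstimulated array 1. Cox5b, the zinc-binding subunit, was at 11.30 and 11.23 after PMA and ionomycin and at 10.73, 10.83 and 11.06 in unstimulated cells (0.39 ± 0.12; limma adjusted p = 0.199). The differences of Cox7a2, Cox8a and Cox6a1 were 0.35 ± 0.06, 0.24 ± 0.13 and 0.15 ± 0.08. Cox4i1, the largest nuclear-coded subunit, was at 10.78 and 10.78 after PMA and ionomycin and at 10.69, 10.85 and 10.76 in unstimulated cells, within the spread of the unstimulated arrays (0.01 ± 0.06).

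The forms known from other tissues had a median of -0.04 over 7 genes, and 5 of the 7 had groups that overlapped. All 7 had a value shared by at least 2 arrays, as had 17 of the 81 members. Cox6b2, known from testis, was at 6.12 and 6.03 after PMA and ionomycin and at 5.83, 5.83 and 5.50 in unstimulated cells (0.35 ± 0.13; limma adjusted p = 0.287), without overlap. Cox7b2, also known from testis, was at 3.06 and 2.95 after PMA and ionomycin and at 2.90 on each unstimulated array. Cox4i2, known from lung, was at 5.28 and 5.48 after PMA and ionomycin and at 5.72, 5.47 and 5.48 in unstimulated cells, and Cox7a1, known from heart and muscle, was at 5.77 and 6.22 after PMA and ionomycin and at 5.99, 6.22 and 6.64 in unstimulated cells. Their groups overlapped, with differences of -0.17 ± 0.12 and -0.29 ± 0.27, and those of Cox6a2, Cox8c and Cox8b were -0.02, -0.04 and -0.07. Without the isoforms the median of complex IV was 0.29, and without them and Ndufa4l2 that of the remaining 73 members was 0.52.

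Cox7a2l lay on the other side of 0 from the 9 widely expressed subunits. It belongs to the Cox7a family by sequence and is known as a factor that links complexes III and IV into supercomplexes. It was at 9.91 and 9.78 after PMA and ionomycin and at 10.58, 10.62 and 10.25 in unstimulated cells, so that both stimulated values lay below all unstimulated ones. The difference was -0.64 ± 0.15 (1.55-fold lower; limma adjusted p = 0.136), and its other probe set differed by -0.36. It was the 1 member lower at an unadjusted p under 0.05.

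In complex V, 16 of 17 genes had positive differences and 12 (70.6%) did not overlap, and none was called, with 9 at an unadjusted p under 0.05. The catalytic head and central stalk, where ATP is made, had the lowest median, 0.25 over 5 genes. Atp5b, the catalytic beta subunit, was at 10.51 and 10.40 after PMA and ionomycin and at 10.30, 10.40 and 10.30 in unstimulated cells (0.12 ± 0.05). Atp5a1, the alpha subunit, was at 9.79 and 9.73 after PMA and ionomycin and at 9.49, 9.67 and 9.38 in unstimulated cells (0.25 ± 0.10), and Atp5c1, the gamma subunit of the rotor, was at 10.49 and 10.44 after PMA and ionomycin and at 10.35, 10.45 and 10.45 in unstimulated cells (0.05 ± 0.04). None of the 3 passed the threshold, at limma adjusted p = 0.329 for Atp5a1, 0.357 for Atp5b and 0.505 for Atp5c1.

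The proton-carrying c ring is coded by 3 genes that give the same mature protein, and they differed by unequal amounts. Atp5g1 was at 9.09 and 8.94 after PMA and ionomycin and at 7.97, 8.25 and 8.14 in unstimulated cells, a difference of 0.90 ± 0.11 (1.86-fold; limma adjusted p = 0.0616), with 0.81 on its other probe set. Atp5g3 was at 11.05 and 10.74 after PMA and ionomycin and at 10.35, 10.60 and 10.42 in unstimulated cells (0.44 ± 0.14). Atp5g2 was at 10.12 and 9.79 after PMA and ionomycin and at 9.60, 9.94 and 9.66 in unstimulated cells (0.22 ± 0.16), and only in Atp5g2 among the 3 did the groups overlap. The peripheral stalk, which holds the head still, had a median of 0.54 over 4 genes. Atp5o, its part next to the head, was at 9.47 and 9.26 after PMA and ionomycin and at 8.44, 8.90 and 8.63 in unstimulated cells (0.71 ± 0.17; limma adjusted p = 0.144), and Atp5j was at 10.46 and 10.42 after PMA and ionomycin and at 9.63, 9.98 and 10.03 in unstimulated cells (0.56 ± 0.15; limma adjusted p = 0.169). The small membrane subunits had a median of 0.39 over 5 genes. Atp5k, which takes part in pairing of the enzyme, was at 10.51 and 10.38 after PMA and ionomycin and at 9.23, 9.72 and 9.81 in unstimulated cells (0.86 ± 0.22; limma adjusted p = 0.157). Atp5md, likewise known for pairing, was at 11.25 and 11.27 after PMA and ionomycin and at 11.31, 11.33 and 11.45 in unstimulated cells (-0.10 ± 0.05; limma adjusted p = 0.412), so that the 2 lay on opposite sides of 0.

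Members that were bright before stimulation differed less. Without the tissue isoforms and Ndufa4l2, the 12 members with an unstimulated mean under 8 had a median difference of 0.71, the 39 between 8 and 10 had one of 0.62, and the 22 at 10 or more had one of 0.22. Over all genes the medians in the same ranges were 0.00, 0.00 and -0.03. Across those 73 genes Pearson's r was -0.45 and Spearman's rho -0.47, and across all 81 they were -0.02 and -0.14. The genes share the same 5 arrays, the level enters the difference, and levels of different probe sets also depend on their probes, so these values are a description.

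**Figure D4:**
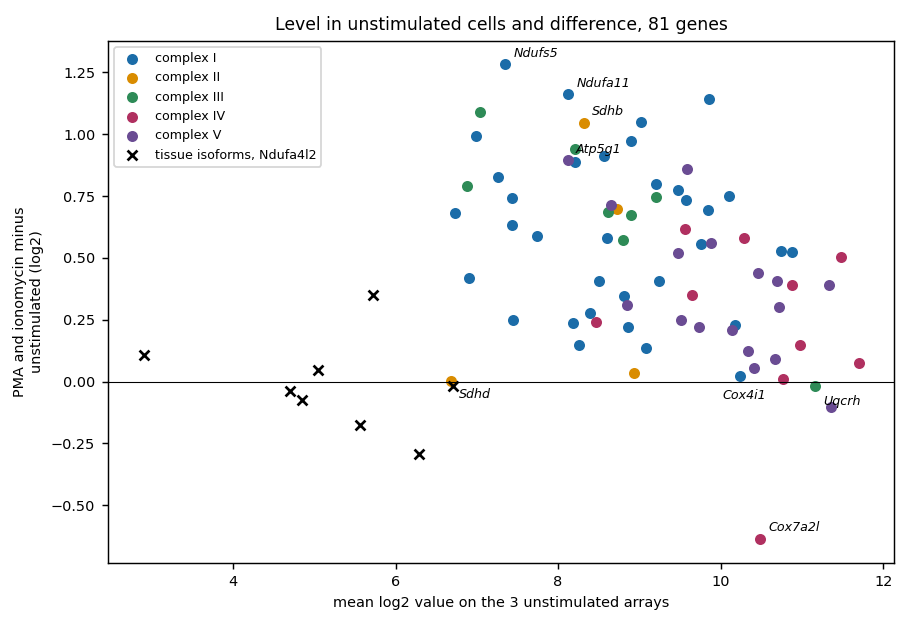
Each point is 1 of the 81 genes, with its mean log2 value on the 3 unstimulated arrays along the horizontal axis and its log2 difference, PMA and ionomycin minus unstimulated, along the vertical axis, and crosses mark the tissue isoforms and Ndufa4l2. Among the other 73 genes the median difference was 0.71 under a level of 8 and 0.22 at 10 or more.

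The genes that surround the respiratory chain were read from lists taken by function. Of 50 listed assembly factors 44 were measured, with a median difference of 0.34, 24 of them higher without overlap and 2 lower, and 1 was called. Timmdc1, which helps build the membrane arm of complex I, was at 7.17 and 7.09 after PMA and ionomycin and at 6.36, 6.32 and 6.29 in unstimulated cells, and it rose by 0.81 ± 0.04 (1.75-fold; limma adjusted p = 0.0229), a call that was lost without unstimulated array 1, 2 or 3 (limma adjusted p = 0.0747, 0.108 and 0.0576). Timmdc1 overlaps the predicted gene Gm15953 in the gene table, and Coq10b, given below, overlaps Gm17971, so their values are uncertain. Wider but uncalled differences belonged to Ndufaf1, an assembly factor of complex I (1.60 ± 0.31; limma adjusted p = 0.107), and to Tmem126b of the same assembly complex (1.48 ± 0.44; limma adjusted p = 0.201). The median was 0.40 over 13 factors of complex I, 0.32 over 10 of complexes II and III, 0.25 over 18 of complex IV and 0.53 over 3 of complex V. The copper-route factor Cox19 differed by 1.25 ± 0.18 (limma adjusted p = 0.0753), and the complex III factor Uqcc2 by 0.99 ± 0.22 (limma adjusted p = 0.13). In the other direction, Sdhaf1, which serves iron-sulfur insertion in complex II, was at 9.46 and 9.23 after PMA and ionomycin and at 9.99, 9.76 and 10.01 in unstimulated cells (-0.57 ± 0.12; limma adjusted p = 0.125), against the direction of Sdhb, the subunit it serves.

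Subunits and carriers whose names lie outside the symbol patterns had a median of 0.54 over 7 genes, 6 without overlap and none called, with 3 at an unadjusted p under 0.05. Among them Ndufab1, the acyl carrier subunit of complex I, was at 9.26 and 9.16 after PMA and ionomycin and at 7.74, 8.14 and 8.20 in unstimulated cells (1.18 ± 0.17; limma adjusted p = 0.0729), and Cyc1, cytochrome c1 of complex III, was at 9.19 and 9.18 after PMA and ionomycin and at 8.29, 8.71 and 8.53 in unstimulated cells (0.68 ± 0.14; limma adjusted p = 0.118). The citric acid cycle and pyruvate dehydrogenase had a median of 0.25 over 18 genes, with none called, 6 at an unadjusted p under 0.05 and 11 higher without overlap. Suclg1, a subunit of succinate-CoA ligase, was at 8.90 and 8.50 after PMA and ionomycin and at 6.67, 7.30 and 7.48 in unstimulated cells (1.55 ± 0.32; limma adjusted p = 0.115), a wider difference than in any of the 81 members. Mdh2, malate dehydrogenase, and Fh1, fumarase, differed by 0.998 ± 0.19 and 0.98 ± 0.16 (limma adjusted p = 0.107 and 0.0853). The carriers of ADP, ATP and phosphate had a median of 0.17 over 7 genes and no call, with 2 higher and 1 lower at an unadjusted p under 0.05, and the ADP and ATP carrier Slc25a5 (0.65 ± 0.14) and the phosphate carrier Slc25a3 (-0.48 ± 0.13) lay on opposite sides of 0.

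Further lists held called genes in the other direction. The 10 genes of coenzyme Q synthesis had a median of 0.17. Coq10b, a coenzyme Q binding protein, was at 7.39 and 7.50 after PMA and ionomycin and at 9.13, 9.08 and 8.81 in unstimulated cells, and it fell by 1.56 ± 0.12 on the log2 scale (2.95-fold; limma adjusted p = 0.0406). That call held without unstimulated array 3 but not without any 1 of the other 4 arrays, at limma adjusted p = 0.0885 to 0.14. Coq7, a hydroxylase of the pathway, differed by 1.34 ± 0.23 (limma adjusted p = 0.0891). The 17 regulators and genes of mitochondrial DNA upkeep had a median of 0.00, with 1 called higher and 1 lower. Pprc1, a relative of the coactivator PGC-1, was at 7.03 and 7.09 after PMA and ionomycin and at 6.69, 6.71 and 6.71 in unstimulated cells, and it rose by 0.36 ± 0.02 (1.28-fold; limma adjusted p = 0.0339). That call was lost without unstimulated array 1, 2 or 3 (limma adjusted p = 0.0976, 0.123 and 0.0714), and with the reference genes as the scale the difference was 0.079. Polg2, the accessory subunit of the mitochondrial DNA polymerase, was at 7.63 and 7.48 after PMA and ionomycin and at 10.22, 9.92 and 10.21 in unstimulated cells, and it fell by 2.56 ± 0.13 on the log2 scale (5.89-fold; limma adjusted p = 0.025). Its call was lost in each of the 5 fits that left out 1 array, at limma adjusted p = 0.0516 to 0.0881. Polg2 overlaps Milr1, a receptor gene of immune cells, in the gene table, so its value is uncertain. Nrf1 and Gabpa, which code for the factors whose sites were searched in the promoters, were at 6.67 and 6.72, and at 9.37 and 9.43, after PMA and ionomycin, against 6.74 to 6.83 and 9.29 to 9.37 in unstimulated cells. Neither Nrf1 nor Gabpa was called. The 13 subunits coded by mitochondrial DNA were not analysed here.

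**Figure D5:**
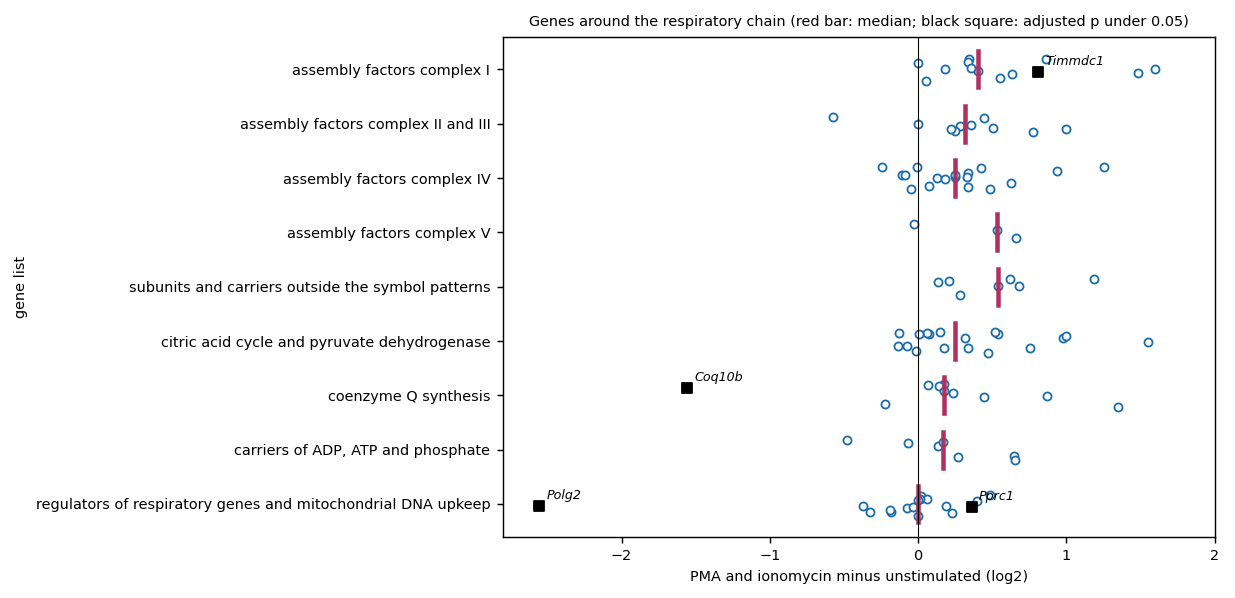
Each point is 1 gene of a list around the respiratory chain, plotted by its log2 difference, PMA and ionomycin minus unstimulated, with a red bar for the median of the list and black squares for genes with a limma adjusted p under 0.05. Called genes were Timmdc1 and Pprc1 among the higher and Coq10b and Polg2 among the lower, and list medians lay between 0.00 and 0.54.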

How the data were processed

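RNA of sorted lung natural helper cells was measured on 1-colour Affymetrix arrays, 5 in all, 2 after PMA and ionomycin and 3 unstimulated, with the group and replicate number read from the sample titles. Per the labels' protocols, 6 micrograms of Trizol-extracted RNA were labelled. The deposited values are log2 levels from RMA, per the submitters' processing notes, while no source used here names the RMA version or a genome build. Without detection calls, background could not be told from low levels, and precision is limited by how few arrays there are.

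Of 35556 probe sets, 21789 had 1 gene symbol in the platform annotation, 1621 had several and 12146 were not in it, and 21698 matched the RefSeq gene table by Entrez number. For the 999 genes with several probe sets the one with the highest mean was used. The 19938 genes were fitted in R 4.3.3 by limma 3.58.1 (functions lmFit and eBayes, unfiltered, no covariate), and an adjusted p under 0.05 (Benjamini-Hochberg, over all genes) was a call. Differences are PMA and ionomycin minus unstimulated, with the SE of the fit. Residual degrees of freedom were 3, and those of the prior 0.649. The smallest exact permutation p of 2 against 3 arrays is 0.1, so none was run. On simulated data for this comparison (19938 genes, 200 changed), limma recovered 44.4% of changes of 0.58, 67.2% of changes of 1 and 84.2% of changes of 2 on the log2 scale. The simulated noise was normal and independent, with each gene's spread taken from the unstimulated arrays alone. The changed genes were drawn from all genes, dim ones included, so these shares need not hold for the members.

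The members and gene lists were chosen with earlier results of these data known, and medians over lists carry no test. Genes named were every called member, the 4 highest and 2 lowest differences of each complex, the catalytic core, the isoforms, and from each other list the called genes and the 3 widest differences. The natural helper cell markers, Alas2, Nrf1, Gabpa, Cox6c, Atp5l and Atp5pb were named after their values were seen. Alternatives changed the prior, array weights, filter, probe set rule, scaling, replicate block, arrays and members.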

Additional observations from a re-analysis of the deposited data

Results flagged for a closer look

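The groups of 2 and 3 arrays were too small for a check of single outlying arrays. The signals picked out for a closer look come from probe sets that the platform annotation gives to more than 1 symbol, which entered none of the comparisons above and were not tested. A probe set shared by Ndufb4, a membrane arm subunit of complex I, and its copy Ndufb4b was at 9.23 and 9.30 after PMA and ionomycin and at 7.51, 7.74 and 8.27 in unstimulated cells, a difference of 1.42. The other probe set shared by this pair was at 9.41 and 9.45 after PMA and ionomycin and at 7.66, 7.92 and 8.46 in unstimulated cells, also a difference of 1.42. Both differ by more than any of the 81 members. A probe set shared by Ndufs5 and its pseudogene Ndufs5-ps was at 9.49 and 9.37 after PMA and ionomycin and at 7.98, 8.65 and 8.95 in unstimulated cells, a difference of 0.90, beside 1.28 on the probe set of Ndufs5 alone. In all 3 probe sets both stimulated values lay above all unstimulated values, and which of the paired genes gave the signal was not tested.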

How the results depend on the processing

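The median over all members was above 0 in every setting run, and so were those of complexes I, II, III and V. It moved most when arrays were centred on the reference genes, to 0.14 over all members, 0.31 in complex I, 0.44 in complex III and 0.031 in complex V, and to -0.17 in complex IV, where it changed sign. It also moved to 0.29 in complex IV without tissue isoforms, and to 0.37 in complexes I and V with only unstimulated array 3 kept. Without 1 array at a time the medians ran from 0.37 to 0.51 over all members and from 0.23 to 0.42 in complex V. Counts of called genes depended on the setting, and the cause was not tested. The 147 genes called higher became 45 with a robust prior, 317 above the lower quartile of all probe sets, 824 above their median, 660 with arrays centred on their medians, 825 after a repeat of quantile normalization and 912 with the reference genes. The 192 called lower became 66, 351, 716, 526, 729 and 3194 in the same order. The members called higher, 1 in all, became 0, 3, 14, 6, 12 and 21 in that order and 0 with the mean of a gene's probe sets, where 41 members had an unadjusted p under 0.05 in the higher direction (40 with a robust prior), and 2 were called lower with the reference genes. Without 1 array at a time, limma called 0 to 361 genes higher, 0 to 413 lower and 0 to 1 members higher, and the 1, without PMA and ionomycin array 2, was Cox7b2. The counts of 0 over all genes came without unstimulated array 2, where 3024 genes had an unadjusted p under 0.05. With the replicate block limma called 0 genes higher, 0 lower and 0 members, with 3568 genes at an unadjusted p under 0.05, and the member median was 0.49. Only 2 numbers are shared, so unstimulated array 3 does not enter the differences of the block fit. The correlations of same-numbered arrays, taken on deviations from the group means, were -0.14 and -0.06. With 2 stimulated arrays these deviations are exact opposites, so the correlations cannot settle whether the arrays are paired. With only unstimulated array 3 kept, limma called 0 genes higher, 0 lower and 0 members, with 3739 at an unadjusted p under 0.05. Differences of single genes that changed sign were uncalled. With the reference genes 22 of the 81 members changed sign, 8 of them outside the genes named (the 22 ran from -0.28 to -0.0023), and the named genes that did were Atp5a1 -0.031, Atp5b -0.16, Atp5c1 -0.23, Atp5g2 -0.061, Cox4i1 -0.27, Cox6a1 -0.13, Cox7b2 -0.17, Cox8a -0.039, Hprt -0.0038, Ndufa4l2 -0.23, Ndufb11 -0.26, Ndufs1 -0.13, Ndufv1 -0.029, Sdha -0.25, Sdhd -0.28 and Tbp -0.050. Other changes of sign were Sdhd at -0.0014 with array weights, Cox6a2 at 0.0034 and Uqcrh at 0.0051 with median centring, Ndufb11 at -0.036 after quantile normalization, Atpaf1 at 0.32 with the replicate block, and Sdha at -0.042, Sdhd at -0.11 and Cox6c at -0.027 with only unstimulated array 3. Without 1 array at a time Sdha ran from -0.046 to 0.089, Sdhd from -0.058 to 0.066, Cox4i1 from -0.029 to 0.054, Uqcrh from -0.057 to 0.025 and Atpaf1 from -0.33 to 0.32.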

Other observations

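Cox7c, a small subunit of complex IV, was measured only by 3 probe sets that the annotation also gives to Gm12338. They were at 11.42, 11.50 and 11.47 on PMA and ionomycin array 1 and at 11.37, 11.43 and 11.44 on array 2, against 11.23 to 11.46 on the unstimulated arrays, with differences of 0.09, 0.12 and 0.13, and the groups overlapped in all 3.

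Of the 81 members, 16 had more than 1 probe set, and within each of these genes the differences had the same sign. The 6 probe sets of Atp5l, a small membrane subunit of ATP synthase, differed by 0.18 to 0.36, and the 2 of Atp5pb, a stalk subunit, by 0.20 and 0.52. In 67 of the 81 members PMA and ionomycin array 1 was above array 2. The same held in 7530 of all 19938 genes, and in 4770 of the 10356 genes brighter than the middle of all probe sets.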
